A study of Mus musculus with 16 samples.

Results

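Airway epithelium of unchallenged Itgb6 knockout mice (ko_saline, 4 arrays) was compared with epithelium of allergic wild type mice (wt_OVA, 4 arrays), which are 8 of the 16 arrays of the series. The ko_saline mice lack beta6 and received saline only, and the wt_OVA mice carry the wild type gene and were sensitized by intraperitoneal injection of 20 ug ovalbumin on days 1, 4 and 7 and then given 10 ug intranasally each week for 9 weeks. Saline-treated wild type mice (wt_saline, 4 arrays) served as the baseline of the allergen response. The remaining 4 arrays, knockout mice given the ovalbumin course (ko_OVA), entered the fit and are quoted only beside single genes. All mice were FvB and 6 to 8 weeks old at sensitization, and the epithelium was brushed from the airways 24 h after the last challenge. The samples are labelled as replicates without saying which animals they came from, so p-values measure the spread between these samples, which may be technical. The knockout is described in the labels only as a loss of beta6, without the altered exons. Genotype and allergen both differ between ko_saline and wt_OVA and cannot be told apart in their direct difference, so each allergen change was placed by all 3 groups.

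Itgb6 encodes the beta6 chain of an integrin of epithelial cells that, paired with alpha v, activates latent TGF-beta. Repeated ovalbumin exposure of sensitized mice is a standard model of allergic airway disease, in which type 2 cytokines turn secretory cells into mucous cells and mast cells settle in the airway epithelium. Mouse mast cells of connective tissues store chymases, tryptases and carboxypeptidase A3 in heparin granules, whereas mucosal mast cells are known for the chymases Mcpt1 and Mcpt2. The question the comparison answers is which allergen changes the unchallenged knockout already shows, lacks or surpasses.

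The mast cell proteases went opposite ways between the groups, so the start regions of 4 of them are shown. Cpa3, Cma1 and Mcpt4 were higher in ko_saline than in wt_OVA, and Mcpt1 was lower. The sequences and positions are those of RefSeq on build GRCm38.p6 and were matched by symbol. The array design used the older build mm9, of which no position is given. Each runs 5′ to 3′ from 250 bases before to 50 bases after the gene's start. Capitals mark the letters GATAA or their reverse complement TTATC, the core that GATA factors such as Gata2 can bind.
Cpa3 (chr3:20242132-20242431, minus strand): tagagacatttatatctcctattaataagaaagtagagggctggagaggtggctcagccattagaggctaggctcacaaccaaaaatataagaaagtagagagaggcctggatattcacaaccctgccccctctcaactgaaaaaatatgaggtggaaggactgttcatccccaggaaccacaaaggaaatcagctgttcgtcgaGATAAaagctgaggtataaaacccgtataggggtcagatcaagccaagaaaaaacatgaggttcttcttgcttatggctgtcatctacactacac
Cma1 (chr14:55944626-55944925, minus strand): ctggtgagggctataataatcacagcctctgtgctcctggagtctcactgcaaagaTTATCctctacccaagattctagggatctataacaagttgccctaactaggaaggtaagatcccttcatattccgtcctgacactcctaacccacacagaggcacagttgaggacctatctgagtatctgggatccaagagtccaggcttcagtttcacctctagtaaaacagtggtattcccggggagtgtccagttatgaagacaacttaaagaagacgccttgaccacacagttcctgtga
Mcpt4 (chr14:56062261-56062560, minus strand): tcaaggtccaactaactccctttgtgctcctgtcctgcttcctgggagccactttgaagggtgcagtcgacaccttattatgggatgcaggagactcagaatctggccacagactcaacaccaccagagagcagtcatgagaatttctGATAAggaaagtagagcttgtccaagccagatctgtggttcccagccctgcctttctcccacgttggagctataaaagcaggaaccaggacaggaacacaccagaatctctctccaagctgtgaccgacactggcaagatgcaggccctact
Mcpt1 (chr14:56017714-56018013, plus strand): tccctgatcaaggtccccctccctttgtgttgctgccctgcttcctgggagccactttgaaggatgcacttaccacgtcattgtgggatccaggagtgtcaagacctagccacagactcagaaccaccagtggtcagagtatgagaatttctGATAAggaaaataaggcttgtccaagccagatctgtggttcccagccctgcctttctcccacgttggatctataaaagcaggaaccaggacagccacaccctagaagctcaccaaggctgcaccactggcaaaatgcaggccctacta
Each of the 4 windows held 1 match, on either strand, against 25.4% of all 32851 windows in the RefSeq table. The Mcpt4 and Mcpt1 windows were 84.1% identical over 295 aligned bases, although the genes moved in opposite directions. These matches are letters and not measured sites. No window of Cma2, Tpsb2 or Mcpt2 was used here.

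The arrays differed in brightness. The 75th percentile of the processed signal was 234.7 to 793.4 intensity units on ko_saline arrays, 128 to 577 on wt_OVA arrays and 128.7 to 374.9 on wt_saline arrays, and the probes well above background made up 53.9 to 62.7%, 47.5 to 74.5% and 47.8 to 58.4% of them. The wt_OVA arrays 1 and 2 stood apart with 74.5% and 72.7%. Every value below is log2 of the signal over its array's 75th percentile, with a floor at -3.32, and a level below the floor is not seen. This common floor is the lowest value well above background on ko_OVA 4, the array where it was highest. On the arrays of the other 3 groups that value lay between -6.511 and -4.211, so a signal at the floor can still be above background. Number of arrays, and not counting depth, limits the precision. The brightest markers of the labelled tissue were Scgb1a1 of club cells, at 8.41 to 10.27 in ko_saline and 8.89 to 10.28 in wt_OVA, and Krt5 of basal cells, at 6.27 to 6.69 and 6.14 to 6.76. The epithelial marker Cdh1 lay at 1.40 to 2.92 and 1.43 to 2.81. Epcam, at 3.48 to 3.71 and 3.88 to 4.07, was lower in ko_saline (-0.35, limma adjusted p = 0.0496). Of markers of other cells, Ptprc lay at -1.03 to 0.61 and -0.47 to 0.88, and Col1a1 at 0.41 to 1.84 and -1.08 to 1.04. Neither passed (adjusted p = 0.852 and 0.125). Of the endothelial markers, Pecam1 was at the floor on all ko_saline arrays, whereas Kdr was above it on all 4. The mean of 25 striated muscle genes ranged from -2.52 to 2.72 among ko_saline arrays and from -2.61 to 2.31 among wt_OVA arrays, so muscle RNA differed by array in both groups. The brighter of 2 Itgb6 probes read -1.02, -0.78, -0.73 and -0.92 in ko_saline and -0.56, -0.57, -0.59 and -0.64 in wt_OVA, a difference of -0.27 ± 0.16 (SE, adjusted p = 0.358). The dimmer one read -2.44, -2.29, -1.83 and -1.98 in ko_saline and -1.21, -1.50, -1.83 and -1.52 in wt_OVA, a difference of -0.62 ± 0.17 (adjusted p = 0.0455 in a limma fit over all probes), and 1 array of each group shared the value -1.83. Whether either probe lies in the disrupted stretch is not given in the sources used here, so they do not check the labels.

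Of 18566 genes tested, 558 were higher in ko_saline than in wt_OVA (3.01%) and 562 were lower (3.03%), together 6.03%, in a limma fit with Benjamini-Hochberg adjustment at 0.05. With each array scaled to its median, under which the all-gene median difference became 0.279, the split was 785 higher and 97 lower. Leaving out wt_OVA 3 or ko_saline 2 gave 249 and 294 higher and 286 and 268 lower genes. Differences of at least 2-fold made up 153 of the higher and 163 of the lower genes. The groups did not overlap in 520 of the higher and 522 of the lower genes, beside 2381 such genes (12.8%) over all genes. The same fit called 485 genes (2.61%) between wt_OVA and wt_saline, of which 289 (1.56%) rose and 196 (1.06%) fell with allergen, but only 30 genes (0.162%) between ko_saline and wt_saline, 23 higher (0.124%) and 7 lower (0.0377%). These comparisons share arrays, so their values are given side by side. Both groups were present on slides 1 and 2 only, with 1 array of each, and the difference within slide 1 and slide 2 was 3.65 and 3.30 for Cma1, -2.21 and -3.36 for Muc5ac and 2.56 and 1.12 for Mcpt4. The groups did not overlap in any of the 65 called named genes, so their direction within a slide is fixed by that.

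Most allergen changes were absent from the unchallenged knockout. Of the 485 allergen-changed genes, 385 (79.4%) differed in ko_saline from wt_OVA against the allergen change and did not pass the test against wt_saline. They comprised 232 genes that rose and 153 that fell with allergen, with a median allergen change of 0.90, a median of -0.04 for ko_saline against wt_saline and of -0.96 for ko_saline against wt_OVA, each counted in the allergen's direction. A further 10 genes (2.06%) were exceeded, that is, ko_saline lay beyond wt_OVA in the allergen's direction, and all 10 were genes that rose. In these the median allergen change was 1.96, and ko_saline lay a median of 4.50 above wt_saline. Leaving out wt_saline 1, wt_saline 2 or wt_OVA 3 left 207, 210 and 209 absent genes, of 236, 236 and 270 allergen-changed ones. Because the wt_OVA arrays served both to choose the genes and to compare with ko_saline, the counts are a description.

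Mimicry in the strict sense, a change called against wt_saline and not called against wt_OVA, was seen in 1 gene. Fpr2, a formyl peptide receptor of phagocytes, sat on the floor in each of the 8 ko_saline and wt_OVA arrays and read -2.96, -2.83, -2.55 and -2.85 on wt_saline arrays. It thus rests on dim signals, and its lack of a difference between ko_saline and wt_OVA is fixed by the floor. Fpr2 was well above background on 2 ko_saline and 0 wt_OVA arrays. It was not mimicked with a lower floor, median scaling, normexp background correction or the deposited series table. Only Chil4 was opposite, rising with allergen and lying below wt_saline in ko_saline. The other 88 genes (18.1%) were undecided, all of them between the wt_saline and wt_OVA means. Their medians were 0.63 for the allergen change, 0.25 for ko_saline against wt_saline and -0.40 for ko_saline against wt_OVA. They included 3 macrophage and dendritic cell genes, chosen after their values were seen. Clec4n changed by -2.54 with allergen (limma adjusted p = 0.00488). For it ko_saline differed by -2.24 from wt_saline (adjusted p = 0.0537) and by 0.30 from wt_OVA (adjusted p = 0.707). Marco and Clec4e changed by -3.00 and -2.61, and ko_saline differed from wt_saline by -2.05 and -2.37 (adjusted p = 0.438 and 0.398). With median scaling, and with the deposited series table, Clec4n was the 1 mimicked gene. It was also mimicked with a stricter probe filter, with only the arrays of the 3 groups, with the scan batch as a fixed block, and without ko_OVA 1 or 2. With array weights and without ko_OVA 4 it was among the mimicked or partly mimicked genes. In the other alternatives that gave classes it was not.

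**Figure D1:**
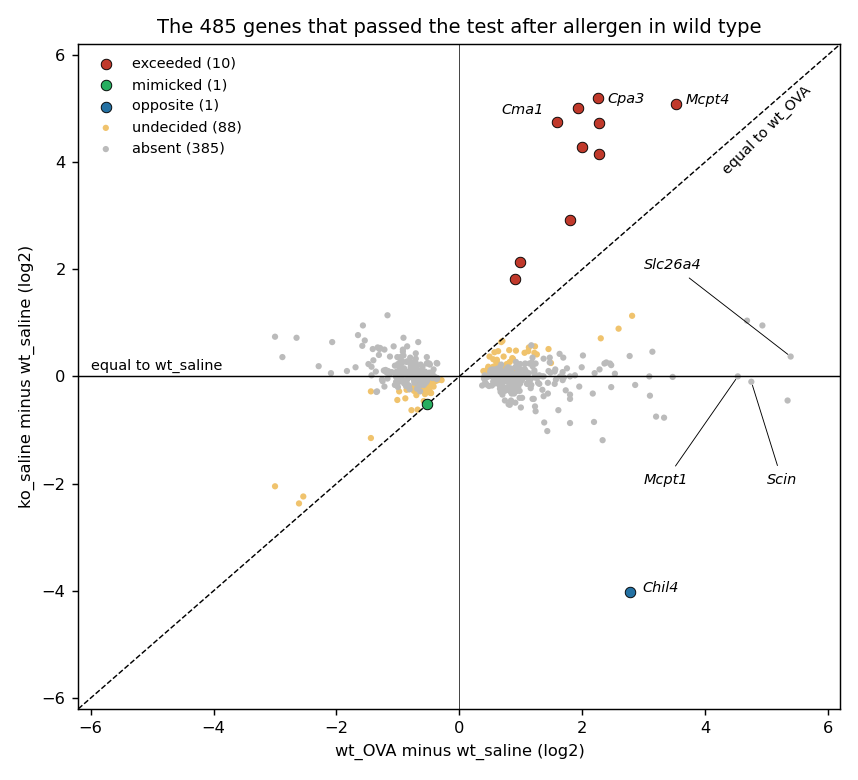
Each point is 1 of the 485 genes that changed with allergen in wild type, by its difference wt_OVA minus wt_saline (horizontal, log2) and ko_saline minus wt_saline (vertical, log2), coloured by class with the count in brackets. Of the 385 absent genes, 353 lie within 0.5 of the horizontal line and the rest between -1.19 and 1.14, and the 10 exceeded genes lie above the dashed line of equality with wt_OVA. Both axes subtract wt_saline.

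Proteases of connective tissue mast cells led the genes in which the unchallenged knockout surpassed allergic wild type. Of 7 measured genes of that list, 6 were higher in ko_saline and none was lower, with a median difference of 2.95 beside -0.02 over all genes. The 6 were Cma1, Cma2, Mcpt4, Tpsb2, Tpsg1 and Cpa3, and the other was Ctsg, at the floor on all ko_saline arrays and on 3 of the 4 wt_OVA arrays. The list mean was 1.89, 1.67, 1.53 and 1.48 on the ko_saline arrays, against -0.36, -0.91, -0.62 and -0.73 in wt_OVA and a range of -2.92 to -2.07 in wt_saline. In bulk samples, more mast cells and more RNA per mast cell cannot be told apart.

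Cma1, a chymase of mast cell granules, read 5.01, 4.55, 4.38 and 4.93 in ko_saline and 1.53, 1.28, 1.64 and 1.71 in wt_OVA. The wt_saline arrays read 0.30, 0.51, -1.11 and 0.15, so the 3 groups stood in steps without overlap. The difference of ko_saline from wt_OVA was 3.18 ± 0.32 (SE, adjusted p = 8.05e-05), which is 9.06-fold. Cma2, a related chymase, read 2.44, 2.25, 2.09 and 1.70 in ko_saline and -0.47, -1.36, -0.99 and -1.04 in wt_OVA, and 2 of the 4 wt_saline arrays were at the floor. Its difference was 3.08 ± 0.29 (adjusted p = 5.43e-05).

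Cpa3, the carboxypeptidase stored beside these chymases, read 2.93, 2.83, 2.76 and 2.47 in ko_saline and 0.23, -0.13, -0.02 and -0.88 in wt_OVA, a difference of 2.95 ± 0.29 (adjusted p = 7.43e-05). Its wt_saline values were -2.51, -2.25, -3.32 and -1.71, below every wt_OVA array. The tryptase Tpsb2 read 2.62, 2.14, 2.21 and 2.21 in ko_saline and -0.12, 0.02, 0.12 and -0.67 in wt_OVA, a difference of 2.46 ± 0.29 (adjusted p = 0.000308). Both were thus raised by allergen and higher still in the knockout that had received no allergen. The ko_OVA means, for reference, were 4.76 for Cma1, 2.64 for Cpa3 and 2.69 for Tpsb2.

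Mcpt4, a chymase of connective tissue mast cells, was nearer to the allergic level. It read 3.52, 3.43, 3.15 and 2.96 in ko_saline and 2.52, 0.40, 1.54 and 2.40 in wt_OVA, a difference of 1.55 ± 0.42 (adjusted p = 0.0446), against wt_saline values of -2.78 to -1.28. The groups did not overlap, but the wt_OVA arrays spread over more than 2 log2 units and the call was lost in 19 of 34 alternatives, 11 of them leaving out 1 array. Across those 34 its adjusted p reached 0.145 and the difference stayed between 1.11 and 1.88. The membrane-bound tryptase Tpsg1 read 0.02, -0.18, -0.59 and -0.56 in ko_saline and lay at or within 0.01 of the floor on all wt_OVA and wt_saline arrays. Its difference from wt_OVA was 2.99 ± 0.22 (adjusted p = 1.51e-05), which is measured from the floor and ranged from 1.67 to 3.53 over the alternatives. No allergen change was called, but the floor hides any difference between the 2 wild type groups. Tpsg1 was well above background on 3 wt_OVA arrays and 0 wt_saline arrays. With a lower floor it was among the exceeded genes, as Cpa3 and Tpsb2 were.

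**Figure D2:**
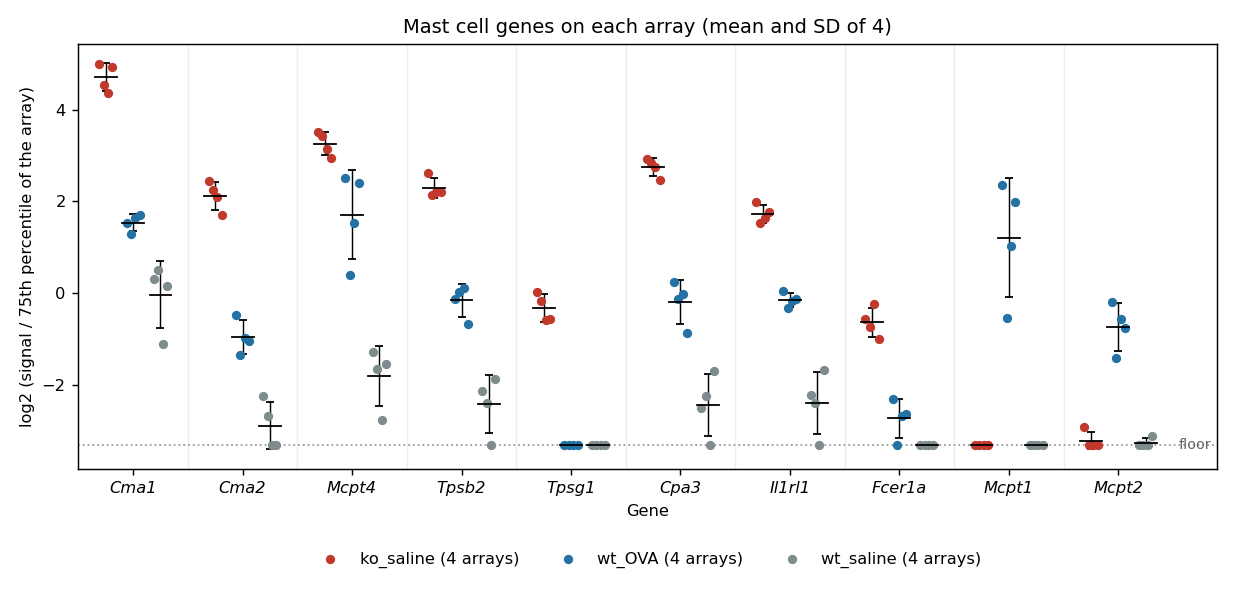
Signal of 10 mast cell genes on each array (log2 over the array's 75th percentile, vertical) in ko_saline, wt_OVA and wt_saline, 4 arrays each, with the mean and SD as bars. The connective tissue type genes are highest in ko_saline, whereas Mcpt1 and Mcpt2 leave the floor on every array only in wt_OVA.

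The mucosal mast cell chymases went the other way. None of the 4 ko_saline arrays lifted Mcpt1 off the floor, and it read 2.37, -0.54, 1.02 and 1.99 in wt_OVA, with all wt_saline arrays at the floor. The difference of -4.53 ± 0.47 (adjusted p = 0.000101) is measured from the floor, which hides any lower level. Mcpt2 read -2.93, -3.32, -3.32 and -3.32 in ko_saline and -0.20, -1.43, -0.56 and -0.77 in wt_OVA, a difference of -2.48 ± 0.20 (adjusted p = 2.26e-05). No array of ko_saline reached the lowest wt_OVA array for either gene. Both of the 2 measured members of the mucosal list were thus lower in ko_saline, and both belong to the absent class. The proteases are near relatives, and how far their probes cross-hybridise was not tested.

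Some receptor and identity genes of mast cells moved with the connective tissue type. Of 9 such genes, 4 were higher in ko_saline and none was lower, with a median of 0.38. The other 5 did not pass: Cd63 at 0.38, Siglecf at 0.00, Mitf at -0.06, Gata1 at -0.21 and Hpgds at -0.29. Siglecf, Gata1 and Hpgds were at the floor on all ko_saline arrays. Il1rl1, the receptor of interleukin 33, read 1.99, 1.53, 1.63 and 1.76 in ko_saline and 0.05, -0.32, -0.17 and -0.13 in wt_OVA, against -3.32 to -1.69 in wt_saline. Its difference from wt_OVA was 1.87 ± 0.32 (adjusted p = 0.00409), and it belongs to the exceeded genes. Fcer1a, the alpha chain of the high affinity IgE receptor, read -0.56, -0.75, -0.24 and -1.0 in ko_saline and -2.32, -3.32, -2.68 and -2.64 in wt_OVA (difference 2.10 ± 0.20, adjusted p = 5.33e-05), with wt_saline at the floor on all arrays. Gata2, a transcription factor of mast cells and basophils, was -0.21, -0.12, -0.16 and -1.04 in ko_saline and -1.75, -2.34, -2.57 and -2.72 in wt_OVA, a difference of 1.96 ± 0.27. Fcer1a and Gata2 were also the 2 measured members of the basophil list, so that list holds no marker that mast cells lack.

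Of 10 genes of amine and granule metabolism, 5 were higher in ko_saline and none was lower, with a median of 0.95. Slc18a2, which loads histamine and serotonin into vesicles, read -1.15, -1.03, -1.12 and -1.61 in ko_saline and -2.44, -3.32, -3.32 and -3.25 in wt_OVA (difference 1.85 ± 0.21, adjusted p = 0.000176). Chst1, a sulfotransferase, differed by 1.76 ± 0.23 (adjusted p = 0.000626). Maob, an amine oxidase, took another course: it read 0.33, -0.14, 0.01 and 0.44 in ko_saline and -1.96, -2.04, -2.39 and -2.24 in wt_OVA, and fell with allergen by 1.17 below wt_saline. Chosen after their values were seen, Tph1, the serotonin-forming hydroxylase, and Lat2, an adaptor of IgE receptor signalling, completed the named exceeded genes at 1.12 ± 0.16 (adjusted p = 0.000935) and 1.14 ± 0.25 (adjusted p = 0.0163). Hdc, which forms histamine, did not pass the test, with means of 5.18 in ko_saline and 5.51 in wt_OVA. The remaining 2 exceeded genes were transcripts with no symbol here. Of the 10 exceeded genes, Cpa3, Tpsb2 and 1 transcript without a symbol were exceeded in all 33 alternatives that gave classes, Il1rl1 in 32, Cma2 and Tph1 in 31, Cma1 in 28, the other transcript in 25, Mcpt4 in 15 and Lat2 in 7. In 18 of the 33 Mcpt4 was instead placed among the mimicked genes.

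The mucous cell program of the allergic epithelium was absent from the unchallenged knockout. Of 23 measured mucous cell genes, 20 were lower in ko_saline than in wt_OVA and none was higher, with a median of -1.79, and 16 of them were in the absent class. With scaling to the array median 13 were lower and 1 was higher, and 13 were lower with the array position as a fixed block. Clca1, a secreted protein that promotes mucus production, read 2.38, 3.21, 3.26 and 3.59 in ko_saline and 8.94, 7.99 and 9.77 on the 3 wt_OVA arrays that measured it. The fit leaves out the remaining array, whose spots the scanner software had marked as non-uniform or outlying, and gave a difference of -5.79 ± 0.81 (adjusted p = 0.00161). The wt_saline arrays read 2.31, 3.17, 2.56 and 6.19, so 1 of them lay well above the ko_saline arrays.

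Muc5ac, the gel-forming mucin of induced mucous cells, read -0.32, -0.61, -0.69 and 0.43 in ko_saline and 3.09, 2.64, 3.96 and 3.03 in wt_OVA, a difference of -3.48 ± 0.53 (adjusted p = 0.00163). Its wt_saline values of -0.67, -0.13, -0.51 and 0.14 lay among those of ko_saline. A second Muc5ac probe was at the floor on all ko_saline arrays and at -3.32 to -2.28 in wt_OVA, a difference of -0.30 from the floor that did not pass (adjusted p = 0.462 over all probes). Slc26a4, the anion exchanger pendrin, read -2.61, -3.06, -2.74 and -3.32 in ko_saline and 2.96, 0.48, 2.14 and 2.75 in wt_OVA (difference -5.01 ± 0.60, adjusted p = 0.000308). Scin, an actin-severing protein, read -1.13, -0.24, -1.54 and -1.32 in ko_saline and 3.92, 3.35, 3.95 and 3.97 in wt_OVA (difference -4.85 ± 0.45, adjusted p = 4.67e-05). For each of these genes every ko_saline array was below every wt_OVA array.

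Itln1, a lectin secreted by mucous cells, lay at 3.23, 3.45, 3.48 and 3.76 in ko_saline and at 7.54, 7.70 and 7.50 on the 3 wt_OVA arrays that entered the fit, a difference of -4.10 ± 0.35 (adjusted p = 6.45e-05). The transcription factors of mucous cells, named after their values were seen, followed: Foxa3 differed by -1.99 ± 0.14 (adjusted p = 1.51e-05) and Spdef by -1.79 ± 0.16 (adjusted p = 4.67e-05). Enzymes that build mucin sugars were lower in 10 of 23 cases and higher in none, with a median of -0.46. The largest difference was that of Galnt6, which starts O-linked chains, at 2.09, 1.84, 2.19 and 2.35 in ko_saline and 3.39, 3.70, 3.83 and 3.27 in wt_OVA (-1.43 ± 0.20, adjusted p = 0.000869). Under scaling to each array's median, 1 of these enzymes was lower and 1 was higher, and the list's median was -0.07.

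**Figure D3:**
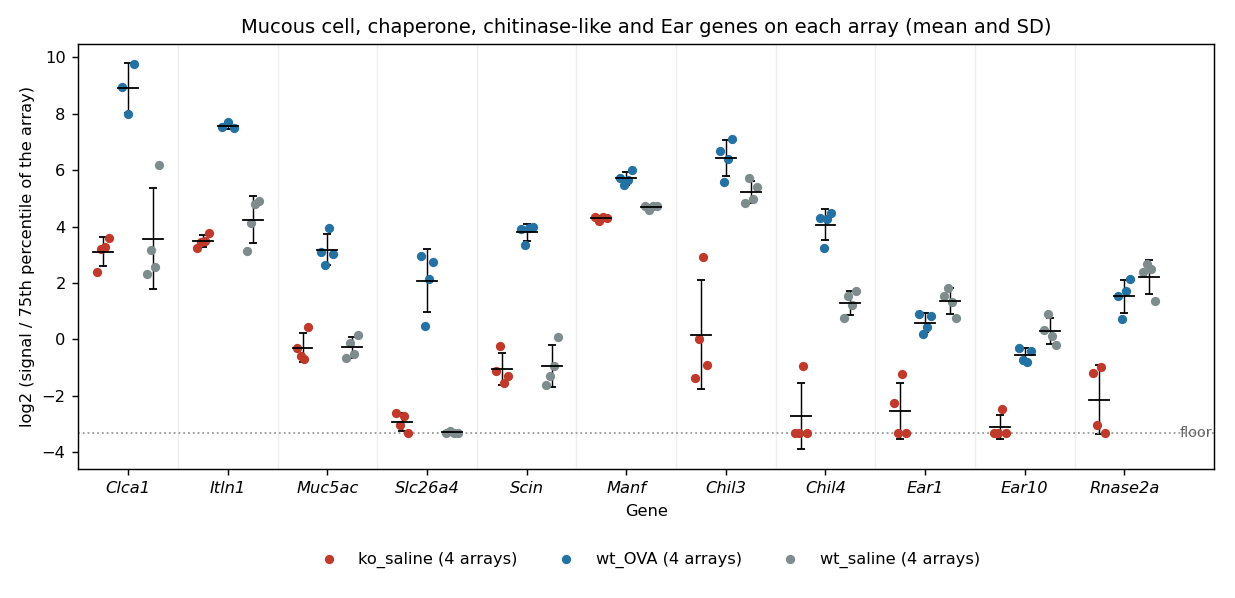
Signal of 11 genes on each array (log2 over the array's 75th percentile, vertical) in ko_saline, wt_OVA and wt_saline, with the mean and SD as bars. Clca1 and Itln1 have 3 wt_OVA arrays and the others 4 in each group. Mucous genes of ko_saline lie near wt_saline, whereas Chil3, Chil4, Ear1, Ear10 and Rnase2a of ko_saline lie below the means of both wild type groups.

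Genes of protein folding in the endoplasmic reticulum were part of the absent response. Of 23 measured, 15 were lower in ko_saline than in wt_OVA and none was higher, with a median of -0.70, and 10 were in the absent class. Sdf2l1, a chaperone cofactor, read 3.02, 2.66, 2.85 and 3.22 in ko_saline and 4.46, 4.06, 4.63 and 4.83 in wt_OVA, a difference of -1.55 ± 0.19 (adjusted p = 0.000356). Manf, a secreted stress factor, read 4.33, 4.20, 4.35 and 4.31 in ko_saline and 5.71, 5.47, 5.64 and 6.02 in wt_OVA (-1.41 ± 0.13, adjusted p = 5.33e-05). Pdia4, a disulfide isomerase, differed by -1.29 ± 0.15 (adjusted p = 0.000308). With scaling to the array median, 3 of the 23 were lower and the list's median was -0.37. Among 29 genes of transport between the reticulum and the Golgi, 6 were lower and none was higher (median -0.22), led by Kdelr3 at -0.80 ± 0.18, Sec24d at -0.66 ± 0.11 and Ssr3 at -0.61 ± 0.15. Of the 29, only Sec24d was in the absent class. Kdelr3 and Ssr3 were not called with allergen in the limma fit (adjusted p = 0.0971 and 0.0988). Under median scaling none of the 29 passed and their median was 0.11, of the other sign.

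Chitinase-like genes fell below the unchallenged wild type level as well as below the allergic one. Chil4 was at the floor on 3 ko_saline arrays and read -0.96 on the other, whereas the wt_OVA arrays read 4.30, 3.24, 4.25 and 4.47 and the wt_saline arrays 0.74, 1.54, 1.20 and 1.70. Its difference from wt_OVA was -6.79 ± 0.64 (adjusted p = 7.43e-05), measured partly from the floor, and that from wt_saline was -4.02 (adjusted p = 0.0201). Chil3 read -1.38, 0.02, 2.92 and -0.90 in ko_saline and 6.68, 5.57, 6.39 and 7.10 in wt_OVA, a difference of -6.27 ± 0.89 (adjusted p = 0.000932). It was 4.82 to 5.71 in wt_saline, from which ko_saline differed by -5.06 (adjusted p = 0.0349), and was not called with allergen (difference 1.21, adjusted p = 0.524). The ko_saline array 3 was the highest of its group for both genes, and the ko_OVA means were 3.07 for Chil4 and 4.70 for Chil3. Besides Chil4 and Chil3, only Alox15 of the 21 measured type 2 response genes was called, at -0.95 ± 0.19 (adjusted p = 0.0105), and none was higher.

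The ribonuclease genes Ear1, Ear10 and Rnase2a were lower in ko_saline than in wt_OVA and were not called with allergen in wild type. Ear1 read -2.25, -3.32, -1.25 and -3.32 in ko_saline and 0.89, 0.19, 0.45 and 0.83 in wt_OVA (difference -3.12 ± 0.54, adjusted p = 0.00417), and wt_saline arrays read 0.75 to 1.82, with ko_saline also lower than these (-3.89, adjusted p = 0.00358). Ear10 was at the floor on 3 ko_saline arrays and read -0.30, -0.75, -0.80 and -0.42 in wt_OVA (-2.54 ± 0.27, adjusted p = 0.000111). In ko_saline it was also lower than in wt_saline (-3.39, adjusted p = 8.93e-06). Rnase2a, of the same family, read -1.21, -3.06, -0.97 and -3.32 in ko_saline and 1.55, 0.71, 1.72 and 2.12 in wt_OVA (-3.66 ± 0.82, adjusted p = 0.0192). The difference of Rnase2a in ko_saline from wt_saline did not pass (-4.35, adjusted p = 0.0589). As these 3 genes were not called with allergen, their difference from wt_OVA is not counted as an absent allergen change. Ear6 did not pass, at -1.99 ± 0.65 (adjusted p = 0.0866), with all ko_saline arrays at the floor. Of the 6 measured eosinophil genes, 3 were lower, namely Ear1, Ear10 and Alox15, and none was higher. Rnase2a is not in that list. The macrophage and dendritic cell list had 3 of 19 lower and none higher, namely Itgax, at -1.65 ± 0.32, Itgae, at -1.62 ± 0.23, and Plet1, at -0.81 ± 0.20, with a list median of 0.00. Ear and chitinase-like genes are also expressed by lung macrophages, and the part of cell makeup in these differences was not tested.

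Another group of genes fell with allergen in wild type and did not pass the test between ko_saline and wt_saline. Scgb1c1, a secretoglobin, read 2.60, 1.59, 2.17 and 3.57 in ko_saline and -1.12, -1.28, -1.91 and -0.74 in wt_OVA, a difference of 3.74 ± 0.48 (adjusted p = 0.000496). The wt_saline arrays, at 1.22, 1.90, 1.50 and 2.36, overlapped those of ko_saline. Sftpb, a surfactant protein gene, read 1.64, 1.05, 1.50 and 2.21 in ko_saline and -1.55, -1.18, -2.15 and -1.69 in wt_OVA (difference 3.24 ± 0.30, adjusted p = 4.67e-05). It was the 1 gene of 15 alveolar markers called, whereas Sftpc, the marker restricted to alveolar type 2 cells, ranged over 2.44 to 6.40 in ko_saline and 1.55 to 4.52 in wt_OVA (adjusted p = 0.219). Adcyap1r1, a neuropeptide receptor, read 0.60, 0.43, 0.09 and 1.31 in ko_saline and -2.13, -2.74, -2.82 and -3.32 in wt_OVA (difference 3.36 ± 0.32, adjusted p = 8.29e-05), while a dimmer second probe, at the floor on all wt_OVA arrays, differed by 0.77. For these genes the 2 compared groups did not overlap.

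Enzymes of xenobiotic metabolism were higher in ko_saline than in wt_OVA in 15 of 32 cases and lower in none, with a median of 0.63, and 12 of them were allergen-lowered genes of the absent class. The count was 6 with the array position as a fixed block. Akr1c18, an aldo-keto reductase, read 2.36, 2.28, 1.83 and 1.43 in ko_saline and -0.25, -0.03, -0.19 and -0.23 in wt_OVA (difference 2.15 ± 0.33, adjusted p = 0.00171). Gstt1, a glutathione transferase, read -0.27, -0.87, -1.0 and -0.37 in ko_saline and -2.83, -2.28, -2.35 and -2.76 in wt_OVA (1.93 ± 0.26, adjusted p = 0.000655). Fmo1, a flavin monooxygenase, differed by 1.87 ± 0.37 (adjusted p = 0.0096). Of 22 club cell genes 7 were higher and 1 was lower, with a median of 0.10. The lower one was Bpifb1, an antimicrobial secretory protein, at 6.48, 5.98, 6.18 and 6.73 in ko_saline and 7.54, 7.48, 8.02 and 7.50 in wt_OVA (-1.29 ± 0.22, adjusted p = 0.00328). Scgb1a1, the defining gene of club cells, was not called (difference -0.24, adjusted p = 0.806).

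**Figure D4:**
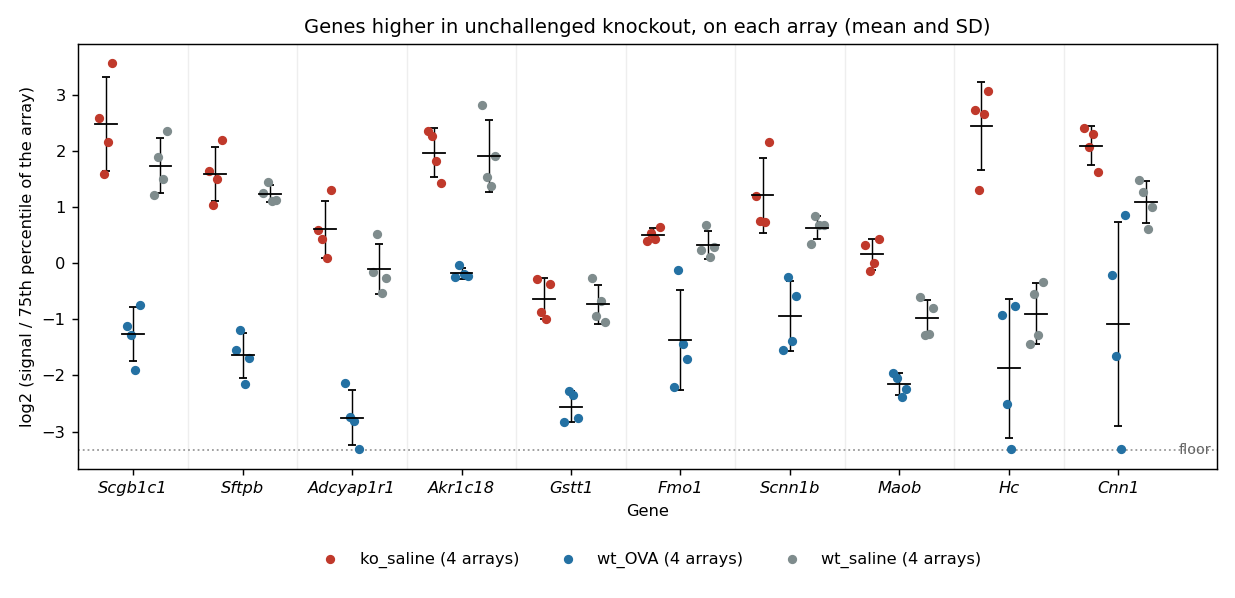
Signal of 10 genes that were higher in ko_saline than in wt_OVA on each array (log2 over the array's 75th percentile, vertical) in ko_saline, wt_OVA and wt_saline, 4 arrays each, with the mean and SD as bars. From Scgb1c1 to Scnn1b the ko_saline arrays overlap wt_saline, and for Maob, Hc and Cnn1 they lie above it.

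Ciliated cell genes were lower in ko_saline in 10 of 21 cases and higher in none, with a median of -0.49. Dnah9, a dynein heavy chain of motile cilia, read 3.68, 3.63, 3.71 and 3.66 in ko_saline and 4.41, 4.56, 4.67 and 4.23 in wt_OVA (-0.80 ± 0.13, adjusted p = 0.00279), and its second probe was at the floor on all arrays. Foxj1, the transcription factor that defines the lineage, ranged over 5.26 to 5.55 in ko_saline and 5.75 to 6.23 in wt_OVA (-0.58, adjusted p = 0.0279). These calls rest on the scaling: with each array scaled to its median none of the 21 passed and the list's median was -0.16, and with normexp background correction none passed either.

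Ion transport genes split, with 2 of 17 higher and 2 lower. Besides Slc26a4, the lower one was Clca3b, at the floor on all ko_saline arrays and at -1.16, -0.60, -0.98 and -1.56 in wt_OVA (-2.25 ± 0.24 from the floor, adjusted p = 0.000125). Scnn1b, the beta subunit of the epithelial sodium channel, read 1.20, 0.75, 0.73 and 2.17 in ko_saline and -1.54, -0.25, -1.38 and -0.59 in wt_OVA (2.15 ± 0.35, adjusted p = 0.0025). Protease inhibitors were lower in 3 of 22 cases and higher in none. Spink1, a trypsin inhibitor, read -1.71, -1.55, -1.50 and -0.63 in ko_saline and 1.37, 3.04, 3.40 and 0.63 in wt_OVA (-3.46 ± 0.57, adjusted p = 0.00297). The others were Serpinb11 at -1.82 ± 0.29 and Serpinb12 at -1.76 ± 0.32, whose second probe was at the floor on all ko_saline arrays and differed by -0.29.

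Several differences from wt_OVA were in genes not called as allergen changes. Hc, which encodes complement component C5, had the largest higher difference, with 2.74, 1.31, 2.66 and 3.08 in ko_saline and -0.92, -2.51, -3.31 and -0.76 in wt_OVA (4.32 ± 0.65, adjusted p = 0.00157). It read -1.43, -0.55, -1.28 and -0.33 in wt_saline, below all ko_saline arrays, but that difference did not pass the test (3.34, adjusted p = 0.0728). Hc lies on chromosome 2, as Itgb6 does. Cnn1, a calponin of smooth muscle, differed by 3.18 ± 0.71 (adjusted p = 0.0189), on wt_OVA values from -3.32 to 0.87, and was the only called gene of 17 fibroblast and smooth muscle genes. Saa3, an acute phase protein, read 0.56, 0.07, 2.33 and 1.49 in ko_saline and -0.78, -1.79, -1.91 and -2.73 in wt_OVA (2.92 ± 0.64, adjusted p = 0.0168). Against wt_saline, wt_OVA differed by -2.18 for Cnn1 and -1.90 for Saa3 (adjusted p = 0.129 and 0.14). The ko_saline group differed from wt_saline by 1.00 and 1.02 (adjusted p = 0.903 and 0.888). An allergen change in these 2 genes is thus left undecided. By contrast 2210407C18Rik, with no described role here, differed by -3.53 ± 0.43 (adjusted p = 0.00035) and belongs to the absent class, having risen with allergen by 2.33 (adjusted p = 0.0106). Altogether 383 of the higher and 324 of the lower genes were called in neither comparison with wt_saline. Their median differences were 0.26 and -0.21 for ko_saline against wt_saline and -0.41 and 0.47 for wt_OVA against wt_saline.

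**Figure D5:**
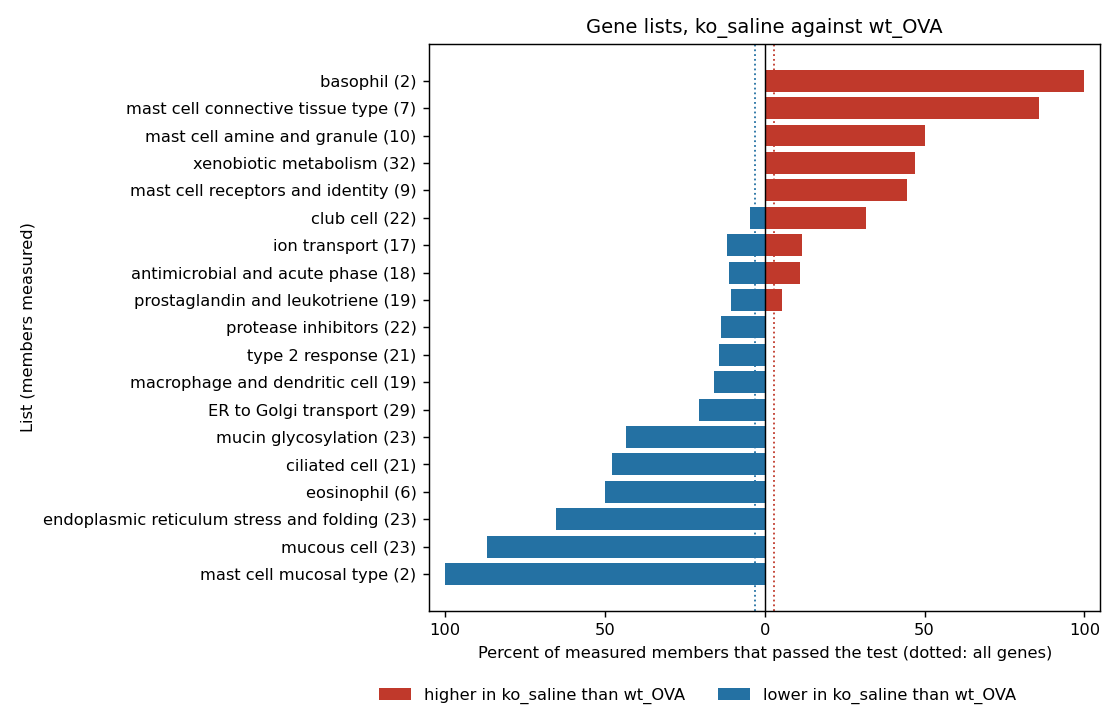
Percent of each list's measured members (number in brackets) that were higher (red, right) or lower (blue, left) in ko_saline than in wt_OVA, for the lists with at least 2 called members. Dotted lines mark 3.01% and 3.03%, the shares over all genes. The mucosal mast cell and mucous cell lists reach furthest to the left and the basophil and connective tissue mast cell lists furthest to the right.

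In the remaining lists few or no members were called. Counts higher and lower were 1 and 2 of 19 for prostaglandin and leukotriene genes, 2 and 2 of 18 for antimicrobial and acute phase genes, 0 and 1 of 12 for neutrophils, 1 and 0 of 12 for tuft and neuroendocrine cells, 1 and 0 of 12 for endothelium, 1 and 0 of 25 for striated muscle, 0 and 1 of 7 for cartilage and 0 and 1 of 11 for adipocytes. The neutrophil gene was Retnlg, at -3.03 ± 0.84 (adjusted p = 0.0485), whose call was lost in 21 of 34 alternatives. The endothelial gene was Kdr, a receptor of vascular endothelial growth factor, at -0.71, -0.56, -0.79 and 0.81 in ko_saline and -2.13, -3.32, -3.32 and -2.82 in wt_OVA (2.59 ± 0.48, adjusted p = 0.00643). The adipocyte gene was Cidea, which rose with allergen and read 3.07, 3.08, 3.17 and 3.60 in ko_saline and 4.26, 4.68, 4.80 and 4.53 in wt_OVA (-1.34 ± 0.18, adjusted p = 0.000808). None of 25 TGF-beta target genes and none of 15 genes of integrins and TGF-beta activation passed the limma test, with medians of 0.18 and 0.08, although 6 and 3 of them had an unadjusted p under 0.05, which 21.4% of all genes had. Of 34 alternatives, 4 and 3 called members of these lists, at most 5 and 2 of them. Nearest in the first list were Ski, a repressor of TGF-beta signalling, at 0.68 ± 0.21 (adjusted p = 0.0705) and Tagln, an actin-binding protein, at 1.65 ± 0.60 (adjusted p = 0.123). Nearest in the second were Itga3, an integrin alpha chain, at -0.41 ± 0.14 (adjusted p = 0.105) and the ligand Tgfb2 at 0.74 ± 0.28 (adjusted p = 0.148). No member was called in limma of the basal cell, squamous, MHC class II, T cell, B and plasma cell, alarmin, interferon, cell cycle, immediate early, thyroid and red blood cell lists, in which 16 of 143 members had an unadjusted p under 0.05. Alternatives called at most 4 of 12 B and plasma cell genes, 3 of 9 squamous genes, 3 of 13 alarmin genes and 1 each of the T cell, interferon, cell cycle and immediate early genes, and none of the basal cell, MHC class II, thyroid and red blood cell genes.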

How the data were processed

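RNA of 16 airway epithelium samples was labelled with Cy3 from 0.5 ug each and hybridised to 1-colour mouse arrays, per the labels. The deposited scanner files hold the processed signal, an intensity on a linear scale after background subtraction, per the file headers (Feature Extraction 10.5.1.1, while the submitters' processing notes give 10.1). The deposited series table holds log2 values whose column medians were 5.90 to 5.94 and whose ranks follow the spot medians. Its normalization is not stated, and it was used as an alternative.

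Control spots and spots marked non-uniform or outlying were dropped, spots of 1 probe were averaged, and signals were divided by the array's 75th percentile, floored and log2 transformed. A probe needed a signal well above background in 4 or more of the 16 arrays, which 25615 of 41174 met. The brightest probe stood for each gene, leaving 18566 genes, 12851 with a symbol from RefSeq accessions, which matched 24844 probes. Several probes were available for 293 called genes. In 61 of these a probe did not share the gene's sign, a count that includes differences of 0 at the floor. No called named gene had a probe of opposite sign, and the second Dnah9 probe differed by 0. Of 13 called named genes with several probes, 6 had another, dimmer probe that did not pass in a fit of 24385 single probes (Adcyap1r1, Dnah9, Muc5ac, Serpinb12, Ssr3 and Uchl1), an alternative chosen after seeing the data.

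A single limma model (version 3.58.1, R 4.3.3) gave each group its own mean over all 16 arrays, and p-values were adjusted by Benjamini-Hochberg over all genes at 0.05. Of 700 genes in 40 lists, 572 were measured. Named genes were Itgb6, the measured mast cell proteases, the 10 largest called differences in each direction, the 5 largest allergen changes of each class, and from each list as many as 3 called members (2 by smallest p in lists without a call). Members and lists were chosen with earlier results of these data known. On simulated data for ko_saline against wt_OVA over 18566 genes, the fit recovered 96% of 100 genes changed by 2 on the log2 scale and 87% of 100 changed by 1. It also called 15 unchanged genes. The changed genes all had a mean more than 2 above the floor, and each gene had the same normal spread in every group. Recovery of genes at the floor was therefore not tested. Replicate numbers were not taken as pairs: deviations of same-numbered arrays correlated at -0.401 to -0.0654 between ko_saline and wt_OVA, -0.113 to 0.36 between ko_saline and wt_saline, and -0.21 to 0.359 between wt_OVA and wt_saline, where 3 of 4 were over 0.1. Alternatives varied scaling, background correction, floor, probe filter, probe choice, arrays, slide, array position, scan batch, weights and a striated muscle covariate.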

Additional observations from a re-analysis of the deposited data

Results flagged for a closer look

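Of 294 sets of 4 arrays, 26 held an array far from the other 3 by Dixon's test, where chance gives about 1 in 20 (5%). The flagged array was of ko_saline in 12 and of wt_OVA in 7 of these. It was wt_OVA 1 in 4 of them, and ko_saline 1 and ko_saline 4 were flagged as often. In several sets the other 3 arrays were at or near the floor, so that any value above it stood out. In ko_saline these were Mcpt2 at -2.93 and the mucosal mast cell list at -3.13 on array 1, Chil4 at -0.96 and Ear10 at -2.49 on array 3, Cdk1 at -3.16 on array 1 and Col9a3 at -3.23 on array 4. In wt_OVA they were Tpsg1 at -3.31 on array 2, and Ctsg at -2.89 and Slc18a2 at -2.44 on array 1. In wt_saline they were Mcpt2 at -3.13 and the mucosal list at -3.22 on array 4, and Slc26a4 at -3.27 on array 2.

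Away from the floor, ko_saline 1 was high for Tpsb2 at 2.62, against 2.14 to 2.21 on the others. The array ko_saline 4 was low for Gata2 at -1.04, against -0.21 to -0.12, and for Cd79b, a B cell receptor chain, at 0.05, against 1.37 to 1.58, and high for Kdr, a receptor of endothelium, at 0.81, against -0.79 to -0.56. The array ko_saline 2 was low for Dsc2 at -1.95 and high for Dio1 at 0.26.

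Among wt_OVA arrays, Cd79b was 2.07 on array 1, against -0.80 to -0.41, and Cd5, a T cell surface protein, was -1.17 there, against -2.55 to -2.38. Scin was low on array 2 at 3.35 and Bpifb1 high on array 3 at 8.02. Among wt_saline arrays, Manf was 4.58 and B3gnt3 -1.76 on array 2, Ssr3 was 3.88 on array 4, and the connective tissue mast cell list was -2.92 on array 3.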

How the results depend on the processing

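The 65 called named genes kept their sign in all 34 alternatives, fits of single probes apart, and 36 of them were called in every one. Retnlg lost its call in 21, Mcpt4 in 19 and Plet1 in 11 of them. The slide as a fixed block and median scaling cost most calls, leaving 49 and 50 of the 65, and the cause was not tested. Higher genes numbered 179 with normexp, 991 in the series table, 341 with only the 8 compared arrays, 243 with the slide and 185 with the array position as a fixed block, and 1626 with array weights. Lower genes numbered 97 with median scaling, 171 with normexp, 188 with the slide and 256 with the position as a fixed block, 1760 with array weights, and 338 without wt_OVA 1 and wt_OVA 2, an alternative chosen after seeing the data, as was the scan batch. The absent genes were 86 of 100 allergen-changed genes with median scaling, 113 of 130 with normexp, 78 of 94 with the position and 229 of 344 with the slide as a fixed block, 1153 of 1451 with array weights, and 168 of 185 without wt_OVA 1 and 2. Exceeded genes numbered 6 with normexp, 6 with the slide and 4 with the position as a fixed block, and 6 without wt_OVA 1 and 2. With the lower floor they numbered 14, among them Tpsg1, Fcer1a, Gata2, Slc18a2 and Chst1, which were not exceeded in the main fit. Mimicked genes numbered 0 with normexp, 6 with the lower floor, 2 without and 2 with a stricter probe filter, 5 with 12 arrays, 2 with the slide and 2 with the scan batch as a fixed block, and 9 with array weights.

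Leaving out 1 array at a time gave 249 to 601 higher genes, 268 to 625 lower genes, 236 to 540 allergen-changed genes, 207 to 419 absent, 7 to 11 exceeded and 0 to 4 mimicked ones. Besides the arrays named with the counts, leaving out ko_saline 3 gave 362 higher and 313 lower genes, and wt_OVA 4 gave 326 higher genes. The single opposite gene, Chil4, held that class in 14 of 33 alternatives. With the replicate block, 479 genes were higher and 486 lower, and 300 of 370 allergen changes were absent, 9 exceeded and 1 mimicked. No ko_saline array correlated best with the wt_OVA array of its own number, and this was not examined for wt_saline. The common floor limits Chil4, Mcpt1, Mcpt2, Ear10 and Clca3b, whose ko_saline values lie mostly at it, and Tpsg1, whose wt_OVA values do. Of the ko_saline arrays, 3 were well above background for Mcpt2 and Clca3b, 2 for Chil4 and Ear10 and 1 for Mcpt1. Of the wt_OVA arrays, 3 were so for Tpsg1.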
